A study of Mus musculus and Homo sapiens with 8 samples.

Results

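The brush border disaccharidases and the glucose carriers of enterocytes were followed through 6 genes, taken by symbol from the deposited expression table of mouse small intestinal crypts. All 6 genes (Sis, Mgam, Lct, Treh, Slc5a1 and Slc2a2) were among the 13359 distinct genes of the table, and all 6 passed the filter on low values. RNA-seq was done on untreated C57BL/6 mice aged 2 months. All of them carried Apc Min, a truncating allele of the Wnt regulator Apc that gives intestinal adenomas. A pair of libraries came from Apc Min mice labelled Zmynd8 IEC-/-, that is with Zmynd8 deleted in the intestinal epithelium, and a pair from mice labelled Apc Min alone. ZMYND8 binds modified histones and acts on transcription. Each library pooled equal masses of RNA from 3 mice. The sources used here do not give the Cre driver, the deleted exons or the sex of the mice. Whether pools of 1 group came from separate litters or days is not said, and p-values then reflect the spread between these pools alone.

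Starch and table sugar reach the small intestine as short chains and disaccharides, which enzymes anchored in the microvillus membrane split into single sugars. Sucrase-isomaltase (Sis) and maltase-glucoamylase (Mgam) cut sucrose and the products of starch, lactase (Lct) cuts milk sugar, and trehalase (Treh) cuts trehalose. Glucose and galactose then enter the cell with sodium through SGLT1 (Slc5a1) and leave it towards the blood through GLUT2 (Slc2a2). These genes mark absorptive enterocytes of the villus and are low in dividing crypt cells. Lactase falls at weaning and is highest in the jejunum.

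Total reads behind the values ran from 44718091 to 48778712 per library. Zmynd8 itself stood at 7.30 and 7.65 FPKM (reads scaled by gene length and library total) in the libraries labelled knockout, against 6.94 and 4.73 FPKM in the Apc Min libraries. Its log2 fold change was 0.33 (95% interval -0.13 to 0.79, limma adjusted p = 0.293). A gene-level value does not show single exons, so Zmynd8 gave no check of the labels, and the group is called by its label throughout. As for the tissue, the enterocyte marker Vil1 stood at 834 to 1277 FPKM and the stem cell marker Lgr5 at 2.74 to 14.8 FPKM over the 4 libraries. Apoa1 and Fabp2, from the list of absorptive enterocyte genes, stood at 4245 to 7982.5 and 4167 to 6183 FPKM. Transcripts of enterocyte genes were thus abundant in all 4 libraries, while the share of each cell type was not measured.

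The stretches of genome just before the start sites of Sis, Mgam, Lct and Slc2a2 are shown because those of Sis, Mgam and Lct hold motifs of both CDX and GATA factors of the intestine, while that of Slc2a2, the gene with the largest change, holds a single GATA match. Each is 250 bases of RefSeq promoter sequence (GRCm38.p6), read 5′ to 3′ along the gene, with motif matches on either strand in capitals. Another CDX match of Mgam lies after its start site and is not printed.
Sis (chr3:72967864-72968113, minus strand): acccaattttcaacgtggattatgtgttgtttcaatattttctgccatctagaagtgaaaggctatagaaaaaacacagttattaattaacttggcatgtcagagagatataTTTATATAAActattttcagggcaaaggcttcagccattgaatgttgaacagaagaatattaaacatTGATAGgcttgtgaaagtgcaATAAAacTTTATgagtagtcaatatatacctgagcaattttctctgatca
Mgam (chr6:40628581-40628830, plus strand): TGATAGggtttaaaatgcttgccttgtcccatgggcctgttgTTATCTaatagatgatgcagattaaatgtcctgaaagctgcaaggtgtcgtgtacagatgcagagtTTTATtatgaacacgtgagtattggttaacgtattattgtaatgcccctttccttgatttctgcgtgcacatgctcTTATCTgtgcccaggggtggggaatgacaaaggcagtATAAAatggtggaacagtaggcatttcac
Lct (chr1:128328319-128328568, minus strand): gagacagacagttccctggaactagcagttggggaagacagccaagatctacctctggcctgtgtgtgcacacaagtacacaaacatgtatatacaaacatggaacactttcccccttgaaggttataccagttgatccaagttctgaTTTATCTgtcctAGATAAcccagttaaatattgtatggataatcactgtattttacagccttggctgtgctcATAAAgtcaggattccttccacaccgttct
Slc2a2 (chr3:28697653-28697902, plus strand): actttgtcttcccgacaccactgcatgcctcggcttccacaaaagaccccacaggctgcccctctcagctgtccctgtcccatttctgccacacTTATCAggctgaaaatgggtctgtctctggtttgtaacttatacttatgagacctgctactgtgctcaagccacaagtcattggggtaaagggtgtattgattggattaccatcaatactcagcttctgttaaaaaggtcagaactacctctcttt
Both strands of the 300-base RefSeq windows were searched. For CDX the letters were TTTAT. For GATA the core GATAA was searched, and also its variant with the ending GATAG, both only where an A or a T stands before the core. For HNF4 they were CAAAGTCCA, and also the variant form CAAAGTTCA. TTTAT was found before Sis, Mgam and Lct, 3 of the 6 genes, and 40% of all 32851 windows hold it. A GATA motif was found for Sis, Mgam, Lct and Slc2a2, 4 of 6, against 29.8% of all windows. The HNF4 motif was found for Treh alone (0.9% of all windows). The Slc5a1 window held none of these letters. Before Lct, the CDX match at -102 to -98 and a GATA match on the other strand at -101 to -96 overlap, counting back from the start site. A match describes letters only.

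Every one of the 6 genes was higher in both libraries labelled knockout than in either Apc Min library. Such a gap in that direction was seen for 14.9% of the 12948 genes tested, and 48.5% showed the opposite gap. After median-ratio scaling, which evens out the median gene, 6 of 6 still stood apart in that direction, against 27.9% of all genes, with 28.3% apart the other way. At an adjusted p under 0.05, 2 of the 6, Treh and Slc2a2, passed limma over all genes, against 0.595% of all genes tested called in that direction. Limma-voom on the recovered reads called 3 of the 6 higher, Slc5a1 added, against 1.54% of all genes. Both limma calls were lost without either library labelled knockout (Treh adjusted p 0.142 and 0.269, Slc2a2 0.116 and 0.256), and that of Treh also without Apc Min replicate 1 (0.0522). Without Apc Min replicate 2, the log2 fold changes of Sis, Mgam and Slc5a1 were 1.001, 1.04 and 1.21. With no filter on low values Treh and Slc2a2 missed the threshold (0.0528 each), and 1 gene in all was called, against 94 with the filter. All 6 had an unadjusted p under 0.05, a cut at which 7.49% of all genes were higher and 19.1% lower, and list counts at that cut given further on are to be read against these shares. Calls higher by limma and limma-voom in those lists are likewise to be read against 0.595% and 1.54% of all genes. The median log2 fold change was 1.46 over the 6 genes and -0.15 over all genes tested. Members were chosen with earlier results of these data known, so these counts describe them and are no independent evidence. In RNA from whole crypt preparations, a larger share of enterocytes and more RNA per enterocyte cannot be told apart.

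**Figure D1:**
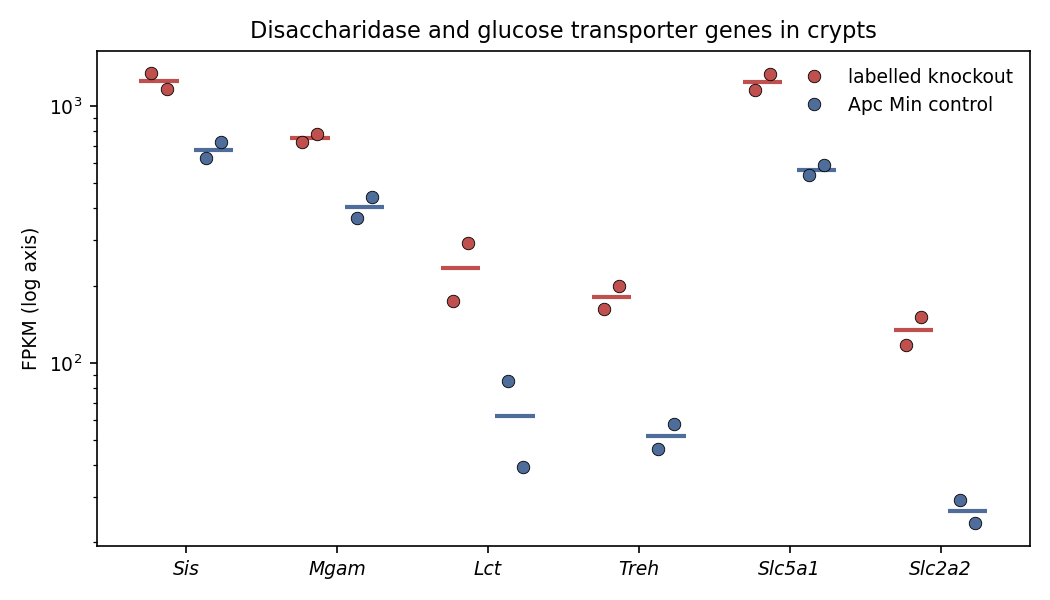
Level of each gene in FPKM on a log axis, with 1 point per library and a bar at the mean of each pair of libraries. Points of the libraries labelled knockout lie above both Apc Min points for all 6 genes, with the widest gap at Slc2a2 and the widest spread within a pair at Lct.

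Sis, which encodes the enzyme that splits sucrose and isomaltose, lies on chromosome 3 (72888554 to 72967864, minus strand, coordinates of the deposited table). It stood at 1345 and 1170.3 FPKM in the knockout-labelled libraries, against 626 and 726 FPKM in the Apc Min libraries. It was among the most abundant transcripts of the preparation, at positions 31 and 39 of the 13359 genes in the libraries labelled knockout and at 68 and 57 in the Apc Min libraries. The group means differed 1.86-fold (log2 fold change 0.895, SE 0.15, limma adjusted p = 0.0765). That is larger than the spread between pools, but does not pass over all genes tested.

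Mgam, which encodes maltase-glucoamylase, which frees glucose from the ends of starch fragments, lies on chromosome 6 (40628831 to 40769123, plus strand). It stood at 728 and 781 FPKM in the knockout-labelled libraries and at 366 and 444 FPKM in the Apc Min libraries. Its difference was close in size to that of Sis, at 1.86-fold between means (log2 fold change 0.90, SE 0.15, limma adjusted p = 0.0737). The ratio of Sis to Mgam within a library was 1.85 and 1.5 in the libraries labelled knockout, against 1.71 and 1.63 in the Apc Min libraries, so it overlapped between groups. The gene length behind the FPKM of Mgam, recovered from the values, was 12062 bases, against 5957 bases for Sis. A pseudogene copy named Mgam2-ps lies beside Mgam in RefSeq, and reads of close copies could be shared.

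Lct, the lactase gene on chromosome 1 (128284756 to 128328318, on the minus strand), had values of 174 and 293 FPKM in the knockout-labelled libraries, against 84.7 and 39.1 FPKM in the Apc Min libraries. The groups did not overlap, and the lower library labelled knockout was 2.06-fold above the higher Apc Min library. Libraries of 1 group differed by a like factor, by 1.68-fold within the pair labelled knockout and by 2.17-fold within the Apc Min pair. Of the 6 genes Lct had the second largest log2 fold change and the widest interval (1.95, 95% interval 0.46 to 3.44, limma adjusted p = 0.142). Without Apc Min replicate 1 the value was 2.50, and without Apc Min replicate 2 it was 1.41.

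Treh, the trehalase gene on chromosome 9 (44673233 to 44686305, plus strand), stood at 161 and 199.8 FPKM in the knockout-labelled libraries and at 46.2 and 57.6 FPKM in the Apc Min libraries. The lower library labelled knockout was 2.80-fold above the higher Apc Min library. Treh rose with a log2 fold change of 1.78 (SE 0.17, 95% interval 1.35 to 2.21, limma adjusted p = 0.0417). The ratio of Treh to Sis within a library was 0.120 and 0.171 in the libraries labelled knockout, against 0.0738 and 0.0794 in the Apc Min libraries, without overlap. Sis and Mgam together made up 86.1% and 79.9% of the summed FPKM of the 4 enzyme genes in the libraries labelled knockout, against 88.3% and 92.4% in the Apc Min libraries.

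Slc5a1, which encodes the sodium-coupled glucose carrier of the brush border, lies on chromosome 5 (33104219 to 33162699, plus strand). It stood at 1160.1 and 1332 FPKM in the knockout-labelled libraries, against 538 and 591 FPKM in the Apc Min libraries. Levels within a pair lay close together and the pairs were far apart, with 2.21-fold between means (log2 fold change 1.14, SE 0.14, 95% interval 0.78 to 1.5). The limma adjusted p was 0.054. Limma-voom on the recovered reads gave 1.31 and an adjusted p of 0.0445, so the call depends on the model.

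Slc2a2, which encodes the low-affinity carrier through which glucose leaves the enterocyte, lies on chromosome 3 (28697903 to 28728361, plus strand). It stood at 117 and 151 FPKM in the knockout-labelled libraries and at 29.2 and 23.7 FPKM in the Apc Min libraries. Its lower library labelled knockout was 4.0-fold above the higher Apc Min library, the widest gap of the 6 genes. Slc2a2 rose with a log2 fold change of 2.29 (SE 0.17, 95% interval 1.85 to 2.74, limma adjusted p = 0.0412), and 0.209% of the genes tested had a larger log2 fold change. The ratio of Slc5a1 to Slc2a2 (FPKM) was lower without overlap, at 9.93 and 8.80 in the libraries labelled knockout, against 18.4 and 25.0 in the Apc Min libraries. The exit carrier was the less abundant transcript in all 4 libraries.

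The levels, which are per length and can be set side by side, fell into tiers. In the libraries labelled knockout Sis and Slc5a1 shared the top, with 1257.5 ± 123 and 1246 ± 122 FPKM (SD, n = 2 each), and their order differed between the libraries. Mgam followed at 755 ± 37.6 FPKM, and Lct, Treh and Slc2a2 lay lower at 233 ± 83.5, 181 ± 27.2 and 134 ± 24.4 FPKM, where Lct and Treh overlapped and both Treh libraries lay above both Slc2a2 libraries. In the Apc Min libraries Sis was at 676 ± 70.3, Slc5a1 at 565 ± 37.8 and Mgam at 405 ± 55.5 FPKM, followed by Lct at 61.9 ± 32.2, Treh at 51.9 ± 8.08 and Slc2a2 at 26.4 ± 3.88 FPKM. Lct and Treh changed order between the Apc Min libraries, and the other neighbours did not overlap there. The 6 genes together made up 0.881% and 0.935% of the summed FPKM of all listed genes in the libraries labelled knockout, against 0.399% and 0.436% in the Apc Min libraries.

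Reads per gene and library ran from 2972 for Slc2a2 in an Apc Min library to 452199 for Mgam in a library labelled knockout, which gives a counting error (relative Poisson SD) of 0.225% to 1.83% in the shallowest library of each gene. No other listed gene overlaps any of the 6. In the authors' deposited table all 6 had q-values under 0.05, from 8.90e-59 for Slc5a1 to 6.81e-16 for Treh, where 1.26% of all listed genes were called higher at that threshold. The sources used here do not name the test behind those values.

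Set against other enterocyte transcripts, the 6 genes split. Vil1, which encodes villin of the microvillus core, stood at 1239 and 1277 FPKM in the knockout-labelled libraries and at 834 and 1092 FPKM in the Apc Min libraries. Relative to Vil1 within each library, all 6 genes were higher in both libraries labelled knockout than in either Apc Min library, which held for 4.3% of 12918 genes with a value in every library. The difference in log2 ratio was 0.50 for Sis, 0.51 for Mgam and 0.74 for Slc5a1, and 1.40 for Treh, 1.57 for Lct and 1.94 for Slc2a2. Against the geometric mean of 18 enterocyte genes, Treh, Lct and Slc2a2 were still higher without overlap, by 0.73, 0.90 and 1.26, where 1.46% of genes were. Sis, Mgam and Slc5a1 overlapped on that measure, with differences of -0.18, -0.17 and 0.07. These ratios are given with no test. The 18 genes include Fabp1, Apoc3 and Apoa4, which themselves had log2 fold changes of 3.22, 3.06 and 2.71.

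**Figure D2:**
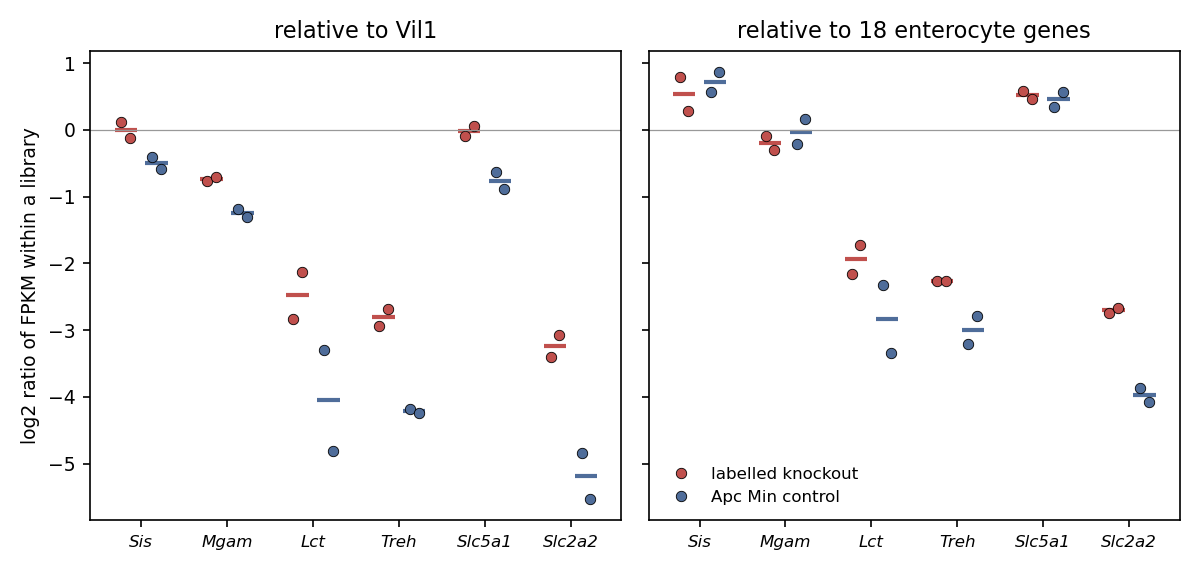
Log2 ratio of each gene's FPKM to that of Vil1 (left) and to the geometric mean of 18 absorptive enterocyte genes (right) in the same library, with bars at the mean of each pair of libraries. Relative to Vil1 all 6 pairs are apart, and relative to the 18 genes Lct, Treh and Slc2a2 are.

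The 6 genes did not share 1 pattern within the pairs of libraries. Lct was higher in replicate 2 of the libraries labelled knockout (log2 ratio to replicate 1 of 0.75) and lower in replicate 2 of the Apc Min libraries (-1.12). Slc2a2 had the same signs at smaller size (0.37 and -0.30), and Sis the opposite signs (-0.20 and 0.21). Treh, Mgam and Slc5a1 were higher in replicate 2 of both pairs. The ileal genes Fabp6, Slc10a2 and Fgf15 ran opposite to Lct. Fabp6, whose product carries bile acids in ileal cells, measured 2250.1 and 134 FPKM in the knockout-labelled libraries and 1459 and 7606 FPKM in the Apc Min libraries. Gata4, a transcription factor gene of the proximal intestine, ran with Lct. It stood at 16.5 and 26.0 FPKM in the knockout-labelled libraries, against 10.6 and 5.86 FPKM in the Apc Min libraries. Not all genes of the proximal list did so. Within the pairs Ces1f ran opposite to Lct, at 29.0 and 22.0 FPKM in the knockout-labelled libraries and 11.3 and 26.9 FPKM in the Apc Min libraries. Of 10 tested genes of the proximal list 7 had positive log2 fold changes with a median of 0.89 (8 positive when scaled by median ratios). They ranged from -2.08 for Hoxb6 to 3.22 for Fabp1. Hoxb6 and Slc40a1 (-1.64) were lower without overlap, as were 48.5% of all genes tested. Another 5 genes of the list were higher without overlap, against 14.9% of all genes tested. Of 9 ileal genes 2 were positive with a median of -0.61 (3 when so scaled). Leaving out 1 library moved the ileal median between -1.05 (without knockout-labelled replicate 1) and -0.16 (without Apc Min replicate 2), with -1.03 without Apc Min replicate 1 and -0.17 without knockout-labelled replicate 2. By limma 0 genes of either list passed (at an unadjusted p under 0.05, 5 proximal higher and 1 lower, and 1 ileal higher; limma-voom called 3 proximal higher and 0 ileal). Summed FPKM of the proximal list was 1011 and 1618 in the libraries labelled knockout, against 314 and 209 in the Apc Min libraries. Fabp1 alone gave 609 and 1107 of these, against 128 and 59.8. The ileal list summed to 4738 and 2036 in the libraries labelled knockout, against 3565 and 10576. The part of gut region in the levels of the 6 genes was not tested.

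**Figure D3:**
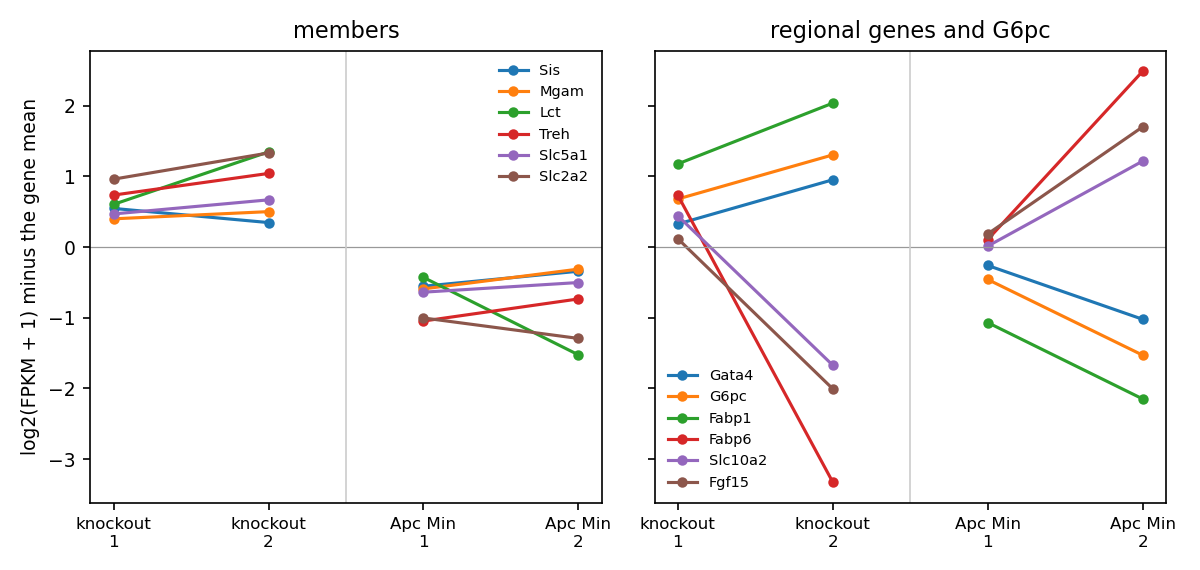
Log2(FPKM + 1) in each library minus the gene's mean over the 4 libraries, for the 6 genes (left) and for Gata4, G6pc, Fabp1 and the ileal genes Fabp6, Slc10a2 and Fgf15 (right); lines only join the points of a gene within a pair. Lct, Gata4, G6pc and Fabp1 slope up in the pair labelled knockout and down in the Apc Min pair, and the ileal genes slope the other way.

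By likeness of pattern, measured as the distance between centred log2(FPKM + 1) profiles over the 4 libraries, the nearest gene to Lct was G6pc (distance 0.0922), which encodes the catalytic subunit of glucose-6-phosphatase, followed by Ms4a10 (0.301). G6pc stood at 16.8 and 26.4 FPKM in the knockout-labelled libraries and at 7.07 and 2.84 FPKM in the Apc Min libraries. Nearest to Slc5a1 were Cyp3a13 (0.0478), a cytochrome P450 gene, and Fmo4 (0.0975), a flavin monooxygenase gene. Cyp3a13 stood at 328 and 388 FPKM in the knockout-labelled libraries, against 154 and 164 FPKM in the Apc Min libraries. Nearest to Slc2a2 were Acsm5 (0.144) and Reg3a (0.155), to Treh the unnamed ENSMUSG00000107689.1 (0.12) and Gstm3 (0.243), to Mgam Gclc (0.0647) and Rhou (0.0837), and to Sis Thnsl2 (0.0915) and LOC102635801 (0.101). Of these, Acsm5 stood at 0.682 and 0.458 FPKM in the Apc Min libraries, ENSMUSG00000107689.1 at 0.782 and 1.43, and LOC102635801 at 0.421 and 0.686. At such low levels the added 1 FPKM shrinks the fold change, so their change in FPKM differs from that of the member. The distances are a description.

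Among the other sugar carriers 2 rose in the libraries labelled knockout. Slc2a7, which encodes the intestinal carrier GLUT7, rose to 27.0 and 35.0 FPKM in the knockout-labelled libraries, against 7.83 and 5.66 FPKM in the Apc Min libraries (log2 fold change 2.05, SE 0.20, limma adjusted p = 0.0417). Slc5a9, the sodium-coupled carrier SGLT4, rose to 17.4 and 18.9 FPKM in the knockout-labelled libraries, against 9.78 and 9.02 FPKM in the Apc Min libraries (0.88, SE 0.10, limma adjusted p = 0.047). Slc2a5, the fructose carrier GLUT5, stood at 56.1 and 63.5 FPKM in the knockout-labelled libraries and at 28.9 and 22.0 FPKM in the Apc Min libraries (1.21, limma adjusted p = 0.0585). Its ratio to Slc5a1 was 0.0484 and 0.0477 in the libraries labelled knockout and 0.0538 and 0.0372 in the Apc Min libraries.

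The remaining carriers did not pass. Slc5a4a and Slc5a4b, close copies on chromosome 10 that encode the SGLT3 proteins and whose reads could be shared, gave 1.75 and 1.33. Slc37a4, the carrier that brings glucose-6-phosphate to G6pc in the endoplasmic reticulum, gave 1.01 (limma adjusted p = 0.0642). Slc2a1, which encodes the widespread carrier GLUT1, stood at 4.95 and 4.40 FPKM in the knockout-labelled libraries, against 27.8 and 8.11 FPKM in the Apc Min libraries (-1.51, limma adjusted p = 0.248). Apc Min replicate 1 was by far the highest for it, and Apc Min replicate 2 also lay above both libraries labelled knockout. Of 16 tested carriers 2 were called higher and 0 lower by limma, against 0.595% of all genes tested called higher. Limma-voom called 6 higher, against 1.54% of all genes. Log2 fold changes were positive for 8 and negative for 8 (9 positive when scaled by median ratios). They ranged from -1.51 to 2.05 around a median of 0.31, against -0.15 over all genes tested. That median was 1.07 over the 10 carriers with a mean of at least 5 FPKM, 0.53 by limma-voom, and 0.58, 0.47 and 0.47 without knockout-labelled replicates 1 and 2 and Apc Min replicate 2. Both carrier calls were lost without either knockout-labelled replicate. They were also lost with no filter on low values and at a mean of at least 5 FPKM. The same held without the trend, without robust moderation and with the replicate block.

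**Figure D4:**
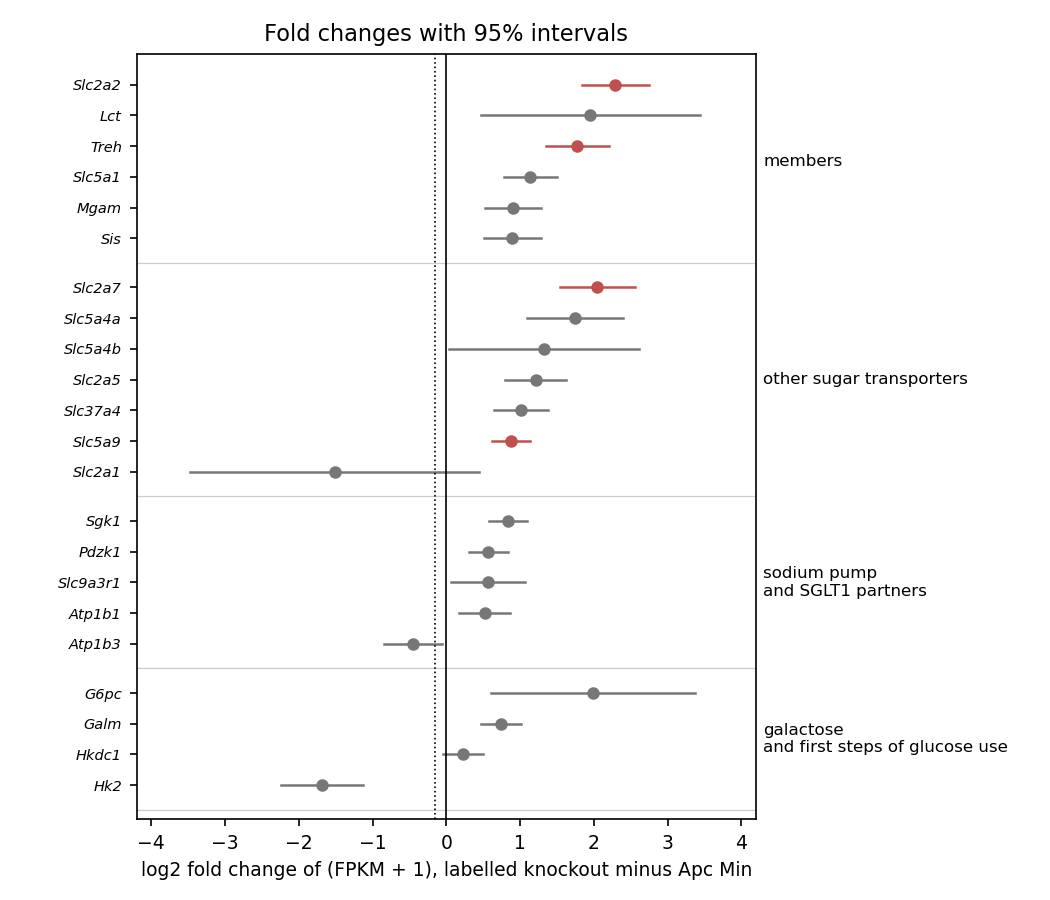
Log2 fold change of each gene with its 95% limma interval (labelled knockout minus Apc Min), for the 6 genes and the genes named in the text from 3 lists around them, with genes past an adjusted p of 0.05 in red. The dotted line marks the median of all genes tested, -0.15, and all 6 lie to the right of it with their whole intervals.

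No gene of the sodium pump that powers SGLT1, or of its partners, passed. Atp1b1, a beta subunit gene of the pump, stood at 924 and 906 FPKM in the knockout-labelled libraries and at 594 and 685 FPKM in the Apc Min libraries (0.52, limma adjusted p = 0.119). The other beta subunit gene of the list, Atp1b3, at 3.8 and 3.09 FPKM in the knockout-labelled libraries and 5.55 and 4.59 FPKM in the Apc Min libraries, gave -0.45. Sgk1, a kinase known to act on SGLT1 and sodium carriers, gave 0.84 (limma adjusted p = 0.0512). The brush border scaffold genes Pdzk1 and Slc9a3r1 gave 0.57 each. Of 8 tested genes 6 were positive around a median of 0.54, and 0 passed limma in either direction (5 higher and 1 lower at an unadjusted p under 0.05, 1 higher by limma-voom). The median was 0.37 without Apc Min replicate 1 and 0.63 without Apc Min replicate 2.

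Genes of the next steps of sugar use had mixed values. Galm, the mutarotase that readies galactose for its pathway, stood at 67.7 and 75.8 FPKM in the knockout-labelled libraries, against 41.3 and 43.3 FPKM in the Apc Min libraries (0.75, limma adjusted p = 0.0661). Hk2, a hexokinase that traps glucose, went the other way, at 12.3 and 8.08 FPKM in the knockout-labelled libraries and at 31.8 and 37.0 FPKM in the Apc Min libraries (-1.68, limma adjusted p = 0.0621). Hkdc1, a member of the hexokinase family, gave 0.22. The 15 tested genes ran from -1.68 for Hk2 to 1.99 for G6pc, 7 above and 8 below zero, with a median of -0.01, and 0 passed limma (2 higher and 4 lower of 15 at an unadjusted p under 0.05, where 7.49% and 19.1% of all genes were, and 1 higher by limma-voom). After median-ratio scaling 9 were positive with a median of 0.09, and without Apc Min replicate 2 the median was -0.13.

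The factors known to act on the sucrase and lactase genes did not pass limma. Cdx2, which activates the sucrase gene, stood at 69.0 and 58.1 FPKM in the knockout-labelled libraries and at 71.0 and 81.2 FPKM in the Apc Min libraries (-0.26). Hnf4a gave -0.37, while Hnf4g, its paralog in enterocytes, gave 0.63 (limma adjusted p = 0.0941). Mlxipl, which encodes the carbohydrate-responsive factor ChREBP, stood at 37.3 and 42.3 FPKM in the knockout-labelled libraries, against 21.4 and 24.5 FPKM in the Apc Min libraries (0.77, limma adjusted p = 0.0705). Gata4 and Gata6 gave 1.28 and 0.57, and Elf3 -0.60. The 19 tested factors ranged from -0.97 to 1.28 around a median of -0.20, with 6 positive (9 when scaled by median ratios, with a median of -0.06). The median was -0.35 and -0.12 without knockout-labelled replicates 1 and 2, and -0.10 without Apc Min replicate 2. By limma 0 passed (4 higher and 2 lower at an unadjusted p under 0.05), and limma-voom called 1 higher.

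Other hydrolases of the same membrane were compared, since they share the brush border but not the substrate. Mme, the peptidase neprilysin, rose to 133 and 161 FPKM in the knockout-labelled libraries, against 51.2 and 49.2 FPKM in the Apc Min libraries (1.52, SE 0.13, limma adjusted p = 0.0417). Asah2, the neutral ceramidase, gave 1.09 and Enpp3, an ectonucleotidase, gave 2.33, and neither passed (limma adjusted p = 0.0669 and 0.0705). Anpep, the abundant aminopeptidase N, gave 0.20 and Enpep 0.09. Of 17 tested genes limma called 1 higher and 0 lower, against 0.595% of all genes tested called higher. Limma-voom called 3 higher, against 1.54% of all genes. Of the 17 genes 14 were positive, in a range of -0.70 to 2.33 with a median of 0.46. The median was 0.25 without Apc Min replicate 1 and 0.66 without Apc Min replicate 2. The limma call was lost without Apc Min replicate 1 and without either knockout-labelled replicate. It was also lost with no filter on low values and at a mean of at least 5 FPKM. The same held without robust moderation and with the replicate block. Sis, Mgam, Lct, Treh, Slc5a1 and Slc2a2 all had larger log2 fold changes than the list median of 0.46, but the difference was not tested.

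Markers of other cell types were compared in the same way, and only the Paneth and tuft lists held genes called by limma. Their part in the values of the 6 genes was not tested. Of 18 enterocyte markers other than the 6 genes, 17 were positive in a range of -0.32 to 3.22, with summed FPKM of 25714 and 30802 in the libraries labelled knockout, against 16337 and 18416 in the Apc Min libraries. By limma 0 of them passed (12 higher and 0 lower at an unadjusted p under 0.05), and limma-voom called 3 higher. All 18 proliferation markers and all 13 stem cell markers were negative, also when scaled by median ratios. By limma and limma-voom 0 of either list passed, with 16 of 18 and 5 of 13 lower at an unadjusted p under 0.05, where 19.1% of all genes were. The proliferation list summed to 258 and 259 FPKM in the knockout-labelled libraries and to 390.2 and 349 FPKM in the Apc Min libraries. Their median log2 fold change was -0.54, with -0.42 without Apc Min replicate 1 and -0.66 without Apc Min replicate 2. The stem cell list summed to 192 FPKM in each library labelled knockout, against 309 and 282 FPKM in the Apc Min libraries, with Olfm4 the largest part (98.3 and 108.6 FPKM, against 133 and 166 FPKM). Without Olfm4 the sums were 93.7 and 83.3 FPKM in the knockout-labelled libraries and 176 and 116 FPKM in the Apc Min libraries. Apc Min replicate 1 stood apart for Lgr5 (2.74 and 3.19 FPKM in the knockout-labelled libraries, 14.8 and 3.48 FPKM in the Apc Min libraries) and Sox9 (5.07 and 3.95 FPKM, against 20.1 and 4.57 FPKM). The list median was -0.53, but -0.20 without that library and -0.81 without Apc Min replicate 2.

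All 7 Paneth markers were negative, and limma called 2 lower, Mmp7 and Itln1, against 0.131% of all genes tested. Limma-voom called 3 lower, and median-ratio scaling and limma without the trend called 1 each. With no filter, at a mean of at least 5 FPKM, without robust moderation or with the replicate block 0 were called. The list summed to 4479 and 6362 FPKM in the knockout-labelled libraries and 7400 and 9589 FPKM in the Apc Min libraries. Tuft markers were negative for 5 of 5, and limma and limma-voom called 2 lower, by limma Sh2d6 and Sh2d7. With median-ratio scaling, quantile normalization, no filter, no robust moderation or the replicate block 0 were called. A pseudocount of 0.1 FPKM and limma without the trend left 1 call each. Levels were low, with sums of 3.81 and 2.85 FPKM in the knockout-labelled libraries, against 24.4 and 13.2 FPKM in the Apc Min libraries. The tuft median was -1.39, but -3.04 with a pseudocount of 0.1 FPKM. Without either knockout-labelled replicate the Paneth and tuft calls were lost. Without either Apc Min replicate 1 tuft gene passed the filter, and it was not called. Goblet markers were negative for 7 of 8 (6 when scaled by median ratios), with sums of 7121 and 6356 FPKM in the knockout-labelled libraries and 7459 and 8920.2 FPKM in the Apc Min libraries. Villus tip markers were positive for 5 of 8 (7 when so scaled), with sums of 1902 and 3201 FPKM in the knockout-labelled libraries and 896 and 1072 FPKM in the Apc Min libraries. Without Apoa4 the villus tip sums overlapped, at 805 and 1039 FPKM in the knockout-labelled libraries and 601 and 885 FPKM in the Apc Min libraries. Their median log2 fold change was 0.17 with 0 called by limma (2 higher at an unadjusted p under 0.05, 1 by limma-voom). It was -0.04 without Apc Min replicate 1, 0.53 without Apc Min replicate 2, and 0.38 and 0.09 without knockout-labelled replicates 1 and 2. Stromal markers summed to 356 and 318 FPKM in the knockout-labelled libraries, just under the 358 and 465 FPKM of the Apc Min libraries. Immune markers overlapped, with 576 and 408 FPKM in the knockout-labelled libraries and 520.2 and 522 FPKM in the Apc Min libraries. So did 5 red cell markers, with 38.5 and 36.2 FPKM in the knockout-labelled libraries and 26.9 and 68.1 FPKM in the Apc Min libraries. Of 11 pancreatic acinar markers Cela1 was in the table, at 12.4 and 11.9 FPKM in the knockout-labelled libraries and 19.9 and 4.89 FPKM in the Apc Min libraries, and the other acinar genes were not analysed here.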

How the data were processed

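RNA-seq of 4 crypt libraries was analysed, 2 per group; 4 ChIP-seq libraries of the HCT116 line were not analysed here. Per the labels, libraries were made with a NEBNext Ultra RNA kit. For this organism the submitters' processing notes list the build mm10, and they list HISAT2 among the tools without its role. The sources used here give no counting tool, annotation or strand setting, so reads of a gene and an antisense partner cannot be told apart. The authors deposited FPKM values per library, log2 fold changes, p-values and q-values, per the file headers; the headers name no unit, and FPKM was read from the values, since the values are whole reads over gene length and library total. Of 13527 entries 168 were exact repeats and were used once. Whole reads were recovered for 13359 genes within 0.002 reads.

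Limma 3.58.1 (R 4.3.3; trend, robust) was run on log2(FPKM + 1) for genes at 1 FPKM or more in 2 or more libraries, with genotype as the only term. P-values were adjusted by Benjamini-Hochberg over 12948 genes, with a threshold of 0.05. Fold changes are on that log2 scale, which understates low genes. An exact permutation test of 2 against 2 libraries cannot go below p = 0.333 and was not used. On simulated data with known changes, the fit called a larger share of unchanged genes among its calls than the threshold allows, so calls near it are uncertain. Median-ratio scaling moves the median of all genes from -0.15 to -0.01.

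The members and gene lists were chosen with earlier results of these data known. Genes were named by rule: the 6 members, Zmynd8, genes past the threshold and the smallest p-values of each list, any member of a list given as a range or with at most 8 measured genes, and the 2 nearest patterns per member. Lgr5, Sox9 and Slc10a2 were chosen after their values were seen. A planned comparison of protein sequences was not made, and some genes and motifs of the lists are not reported here. Alternatives were other pseudocounts, filters, scalings, variance models, limma-voom with TMM scaling on recovered reads, a replicate block and leaving out each library.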

Additional observations from a re-analysis of the deposited data

How the results depend on the processing

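All 6 genes kept a positive log2 fold change under all 14 alternatives, from 0.73 (Sis) to 2.51 (Slc2a2); the calls moved. Treh gave 1.78 and missed the threshold with no filter on low values, at a mean of at least 5 FPKM, without the trend and without robust moderation (limma adjusted p = 0.0528, 0.0539, 0.0516 and 0.0564), and 1.95 with median-ratio scaling (0.0525). Slc2a2 gave 2.29 and missed it with no filter, at the mean of 5 FPKM and without robust moderation (0.0528, 0.0539 and 0.0545). Slc5a1 passed by limma-voom (1.31). Leaving out 1 library each gave 0.789 to 1.001 for Sis, 0.763 to 1.04 for Mgam, 1.41 to 2.50 for Lct, 1.62 to 1.94 for Treh, 1.04 to 1.24 for Slc5a1, and 2.11 to 2.48 for Slc2a2. The group left with 1 library is then assumed to vary like the other. Without either library labelled knockout none of the 6 genes passed.

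The count of genes called, 94, became 1 with no filter, 2 at the mean of 5 FPKM, 50 without the trend, 1 without robust moderation and 222 by limma-voom, and 0 to 616 with a library left out (80 and 616 without Apc Min replicates 1 and 2, 0 without either library labelled knockout). With scaling by median ratios it was 64 (60 higher, 4 lower) and with quantile normalization 66 (61 and 5), against 77 and 17. The deviations of the 2 libraries numbered 1 from their group means had r = 0.0452 over 12948 genes. A single r with 2 libraries per group cannot show whether libraries of the same number shared a litter or day. With the replicate block 0 genes were called (907 higher and 2245 lower at an unadjusted p under 0.05), and Treh (1.78) and Slc2a2 (2.29) had adjusted p of 0.151 and 0.152. Of 307 list medians under the alternatives, 237 moved by less than the spread between libraries. The cause of these moves was not tested. Counting error of the 6 genes was small beside the spread between libraries.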

Other observations

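Glycosidases outside the brush border, which cut sugars in lysosomes and elsewhere, had small differences. Glb1, the lysosomal beta-galactosidase gene, stood at 14.2 and 13.2 FPKM in the knockout-labelled libraries, against 21.8 and 18.2 FPKM in the Apc Min libraries (log2 fold change -0.51, limma adjusted p = 0.106). Gla, the lysosomal alpha-galactosidase gene, gave -0.46. Of 15 tested glycosidase genes 3 lay above zero and 12 below, and their median was -0.13 (-0.04 without Apc Min replicate 1), against -0.15 over all genes tested; when scaled by median ratios 9 were positive. By limma 0 passed (0 higher and 2 lower at an unadjusted p under 0.05, 0 by limma-voom). The 7 amylase genes of the list were not analysed here.

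Hormone and taste genes tied to sugar had small differences. Gip, the hormone of proximal K cells released on glucose, stood at 9.67 and 13.4 FPKM in the knockout-labelled libraries, against 8.91 and 6.58 FPKM in the Apc Min libraries (0.52, limma adjusted p = 0.201). Gcg, which encodes GLP-1, stood at 21.4 and 17.3 FPKM in the knockout-labelled libraries and at 19.3 and 25.8 FPKM in the Apc Min libraries (-0.20). Of 5 tested genes 3 were positive around a median of 0.21 (-0.29 without Apc Min replicate 1, 0.32 without Apc Min replicate 2). By limma 0 passed (0 at an unadjusted p under 0.05, 0 by limma-voom). Of the 10 enteroendocrine markers 5 were positive, around a median of 0.04 (-0.20 without Apc Min replicate 1, 0.28 without Apc Min replicate 2). The secretin gene Sct stood at 42.1 and 39.5 FPKM in the knockout-labelled libraries and at 23.8 and 51.3 FPKM in the Apc Min libraries, so the groups overlapped.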
